A study of Rattus norvegicus with 12 samples.

Results

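The 36 genes described here encode enzymes, membrane proteins and proton pump subunits of the lysosome, together with Tfeb, a transcription factor that controls many of them. They were chosen by name, from what their products are known to do, out of the 30045 gene symbols of a table of read counts. Earlier results of these data were known when they were chosen. All 36 matched a row by symbol, and all 36 passed the filter on low counts that kept 17330 genes for testing. The RNA came from 12 cultures of isolated ovarian theca-interstitial cells of wild type, female Sprague Dawley rats of postnatal day 30, grown on fibronectin-coated plates in McCoys 5A medium for 48 h with their treatment. Control cultures (4 libraries) received vehicle. The second group (4 libraries) received rat interleukin-1β (IL-1β), a cytokine of inflammation, and the third (4 libraries) received lipopolysaccharide (LPS), a component of the outer membrane of Gram-negative bacteria. The protocol gives 1 µg/ml once, after naming both agents, and does not make clear whether that dose is of LPS alone or also of IL-1β. The labels name no transgene or deletion in any group, and whether the cells of several animals were pooled is not given in the sources used here. Theca-interstitial cells surround the follicle and make androgens, and the comparisons ask how transcript levels in these cells shifted after an inflammatory stimulus.

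Lysosomes are acidic compartments in which proteases, glycosidases, sulfatases and lipases break down material taken up by endocytosis or delivered by autophagy. A vacuolar proton pump keeps the lumen acidic, and heavily glycosylated proteins such as LAMP1 and LAMP2 line the membrane. TFEB and its relatives TFE3 and MITF bind short E-box sequences in the promoters of many lysosomal genes once they enter the nucleus, a step controlled by phosphorylation. In steroid-making cells the lysosome also releases cholesterol from lipoproteins, and acid sphingomyelinase and acid ceramidase, encoded by Smpd1 and Asah1, act one after the other on sphingomyelin and ceramide.

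Counts per library summed to between 20873934 and 32090924. Levels are given as CPM, counts scaled to a common library total, with totals adjusted by TMM. Replicates differed from each other by more than counting noise, with a chi-square per degree of freedom of 1.96 to 5.98 over pairs within a group. In a principal component analysis the second component, with 12.5% of the variance, placed LPS replicates 3 and 4 at 24.7 and 21.3 and LPS replicates 1 and 2 at 10.5 and 12.6, so the counts for LPS were repeated without replicates 3 and 4 and are given that way where they changed. Theca markers were present but uneven in control cultures, with Star at a mean of 141 CPM, Nr5a1 at 70.6 CPM, Cyp11a1 at 3.55 CPM, Lhcgr at 2.02 CPM, Cyp17a1 at 0.537 CPM and Insl3 at 0.229 CPM. Of these 6, all were higher with IL-1β and 5 with LPS, and their sum was 202 to 233 CPM in control, 572 to 622 CPM with IL-1β and 431 to 495 CPM with LPS. Of 8 granulosa markers, Inha, Foxl2, Nr5a2 and Inhbb were at 280, 55.1, 39.8 and 32.9 CPM in control and Hsd17b1, Fshr, Amh and Cyp19a1 at 5.97, 2.97, 1.61 and 0.127 CPM, and the sum was 379 to 451 CPM in control, 645 to 853 CPM with IL-1β and 432 to 606 CPM with LPS. The sum of 7 stromal markers was 12650 to 14230 CPM, 9779 to 11113 CPM and 8171 to 9506 CPM in the same order. Col1a1, Col1a2 and Col3a1 were its largest parts, at 4772, 4025 and 3262 CPM in control. Of the 7, 4 were lower with IL-1β and 5 with LPS, while Pdgfra and Dcn rose with both. Pdgfra rose from a mean of 183 CPM in control to 319 CPM with IL-1β and 365 CPM with LPS. Dcn rose from 551 CPM to 597 and 595 CPM. The sum of 8 smooth muscle and pericyte markers was 4718 to 5113 CPM, 1537 to 1741 CPM and 1848 to 2083 CPM in that order. That of 9 endothelial markers was 151 to 176 CPM, 329 to 372 CPM and 232 to 310.0 CPM. The sum of 6 epithelial and mesothelial markers was 34.1 to 35.2 CPM, 19.2 to 21.0 CPM and 17.3 to 23.0 CPM. These markers were divided, with 3 lower and 2 higher under each treatment (2 lower with LPS without its replicates 3 and 4). Krt8 and Krt18, the largest parts at 16.7 and 13.3 CPM in control, fell (log2 -1.21 and -2.01 with IL-1β, -1.26 and -2.02 with LPS). Msln, at 0.287 CPM in control, rose by 3.17 and 3.02, and Krt7, at 2.42 CPM, by 0.76 and 0.54. The sum of 4 lymphocyte markers was at most 7.31 CPM in any library, and none of 5 neutrophil markers passed the filter. With either treatment the theca, stromal, smooth muscle, endothelial and epithelial sums did not overlap those of the controls, and with LPS the granulosa sum did, and the part of these cell types in the results on lysosomal genes was not tested.

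With IL-1β most lysosomal genes were lower than in control cultures and a few were higher. Of the 36 genes, 23 were lower, 7 were higher and 6 did not pass an adjusted p of 0.05, whereas 23.0% of all 17330 genes tested were lower and 24.7% higher. With LPS, 24 were lower, 4 were higher and 8 did not pass, against 20.0% of all genes lower and 22.5% higher. The median log2 fold change of the 36 genes was -0.17 with IL-1β and -0.18 with LPS, beside 0.0094 and 0.0098 for all genes tested. Both comparisons share the 4 control libraries. Without LPS replicates 3 and 4, again 24 were lower and 4 higher with LPS, against 17.6% and 19% of all genes tested. Scaled by library size alone, 21 were lower and 8 higher with IL-1β and 22 lower and 5 higher with LPS, while the share of all calls that were higher moved from 51.7% to 64.1% for IL-1β, and for LPS from 53.0% to 63.4%. In bulk RNA, fewer cells of a type and less RNA per cell cannot be told apart.

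Together the 36 genes took 0.766% ± 0.00515 of all counts in control cultures (SD, n = 4), 0.740% ± 0.00428 with IL-1β and 0.748% ± 0.00645 with LPS. Their summed level was 7774 to 7897 CPM in control, 7251 to 7380 CPM with IL-1β and 7338 to 7596 CPM with LPS, so neither treated group overlapped the controls. Most single changes were small: 26 of the 36 log2 fold changes with IL-1β were negative, with a lowest value of -0.73, and 29 with LPS, with a lowest value of -1.28. Smpd1 and Ctsc stood far above the other genes in both comparisons.

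**Figure D1:**
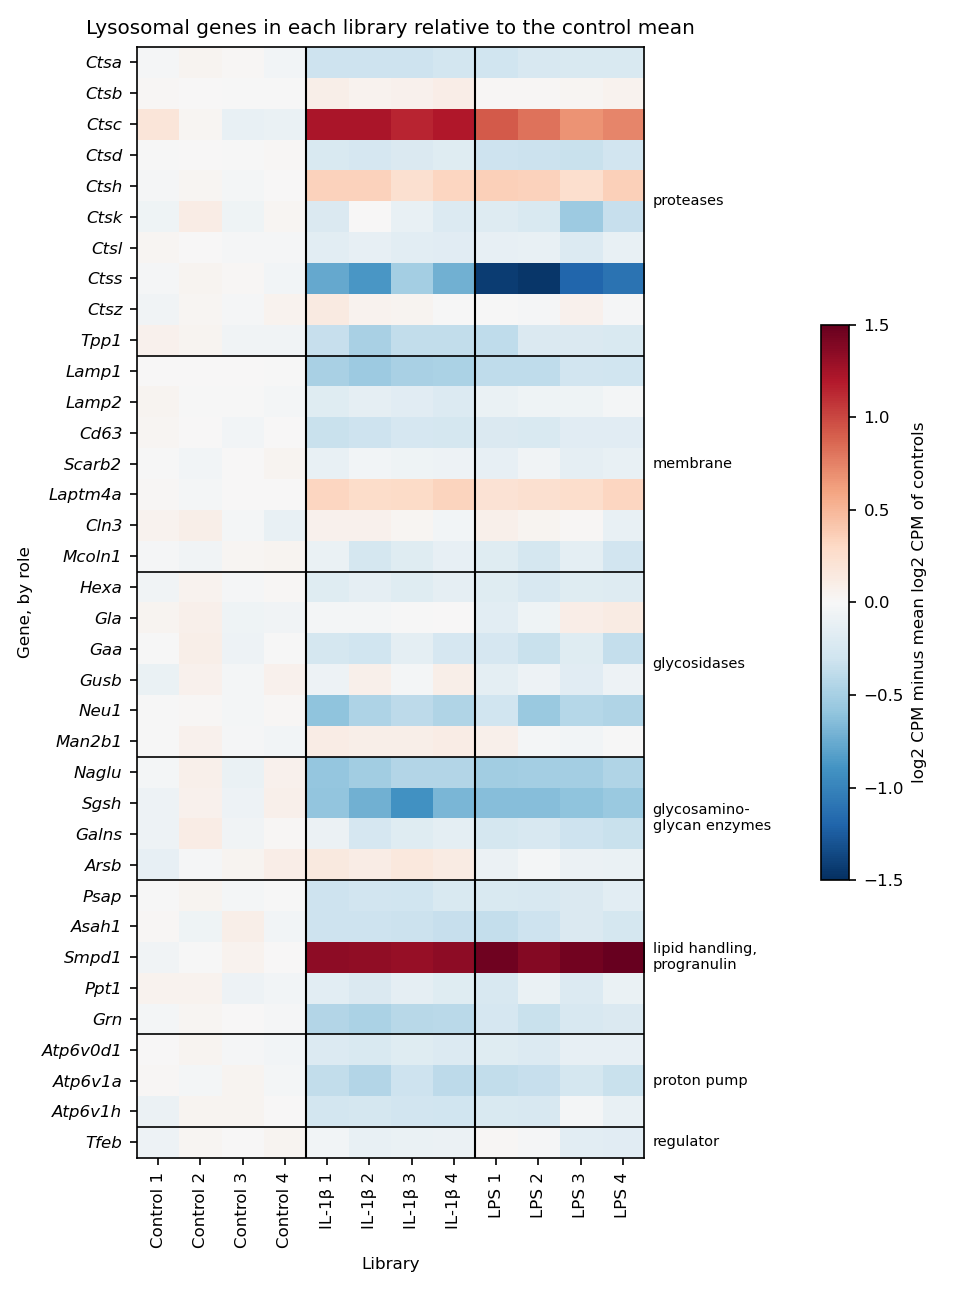
Each cell shows the log2 CPM of 1 of the 36 genes (rows, grouped by role) in 1 of the 12 libraries (columns) minus the mean log2 CPM of the 4 control libraries. Smpd1 and Ctsc are red in all 8 treated libraries, Ctss is blue in all 8, and most other rows are pale blue there.

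**Figure D2:**
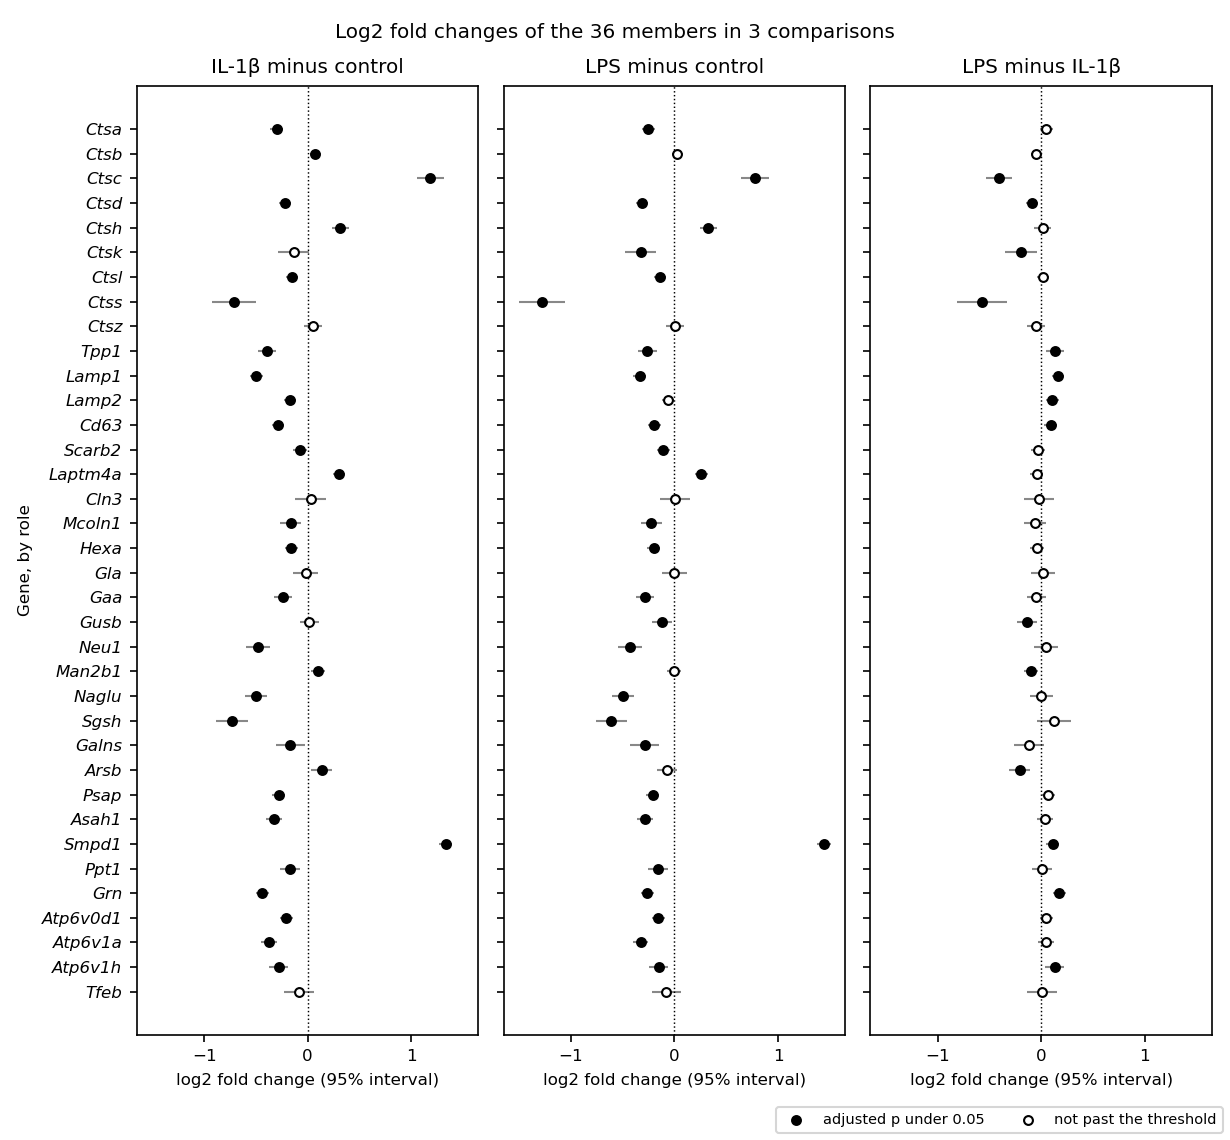
Points are log2 fold changes of the 36 genes with 95% intervals, for IL-1β minus control, LPS minus control and LPS minus IL-1β, and filled points passed an adjusted p of 0.05. Smpd1 lies at 1.33 and 1.44 in the first and second panels, and in the third panel the points run from -0.58 for Ctss to 0.18 for Grn.

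Because TFEB and its relatives bind E-boxes, the promoters of the 36 genes were searched for CACGTG, which reads the same on both strands, and for the longer TCACGTGA, also a palindrome, every copy of which contains CACGTG. RefSeq promoters of the rat build GRCr8, running from 250 bases before to 50 bases after the start, matched 29 of the 36 genes. Ctsb, Hexa, Arsb, Psap, Asah1, Ppt1 and Atp6v1h had no entry. CACGTG was in 8 of the 29 promoters (27.6%), those of Ctsd, Lamp1, Cd63, Cln3, Mcoln1, Gaa, Sgsh and Atp6v0d1, and in 6.418% of 33469 promoters of that length. Those 33469 were not limited to genes that passed the low-count filter, as all 29 did, so the shares come from unlike sets. TCACGTGA was in 5 of the 29 (17.2%), those of Ctsd, Lamp1, Cln3, Mcoln1 and Atp6v0d1, and in 0.777% of all. Lamp1 held 5 copies of CACGTG, Ctsd, Cln3 and Mcoln1 held 2 each, and the other 4 held 1. The stretches with these copies are shown with CACGTG in capitals, from 14 bases before the first copy to 14 after the last, but no further than the base before the start, where the Ctsd stretch ends, and the copy of Mcoln1 after its start is left out. They lie at chr16:83075082-83075260 (minus strand) for Lamp1, chr1:206968822-206968992 (minus) for Ctsd, chr7:1921940-1921973 (plus) for Cd63, chr1:190597948-190598009 (minus) for Cln3, chr12:6358222-6358255 (plus) for Mcoln1, chr10:105028274-105028307 (plus) for Gaa, chr10:105112027-105112060 (minus) for Sgsh and chr19:50357281-50357314 (minus) for Atp6v0d1.
Lamp1: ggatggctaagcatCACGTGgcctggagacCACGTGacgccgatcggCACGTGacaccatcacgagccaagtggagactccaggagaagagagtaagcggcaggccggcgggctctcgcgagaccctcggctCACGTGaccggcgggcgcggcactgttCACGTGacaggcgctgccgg
Ctsd: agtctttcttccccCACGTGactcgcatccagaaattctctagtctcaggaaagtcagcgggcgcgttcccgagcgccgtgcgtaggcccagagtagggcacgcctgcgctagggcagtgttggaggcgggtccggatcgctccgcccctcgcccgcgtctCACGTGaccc
Cd63: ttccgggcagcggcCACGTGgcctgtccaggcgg
Cln3: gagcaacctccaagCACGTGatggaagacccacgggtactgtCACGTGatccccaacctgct
Mcoln1: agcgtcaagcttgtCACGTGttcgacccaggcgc
Gaa: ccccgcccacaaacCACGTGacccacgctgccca
Sgsh: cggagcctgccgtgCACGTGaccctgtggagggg
Atp6v0d1: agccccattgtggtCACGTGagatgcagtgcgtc

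Of the 8 genes whose promoter held CACGTG, 7 were lower with IL-1β and 7 with LPS, and none was higher. Of all 36 genes, 63.9% were lower with IL-1β and 66.7% with LPS. Of all genes tested, 23.0% were lower and 24.7% higher with IL-1β, and 20.0% lower and 22.5% higher with LPS. Whether the 8 genes differ from the rest of the 36 was not tested. Cln3 was the one that did not pass in either comparison. Of the 21 whose promoter lacked it, 11 were lower and 5 higher with IL-1β, and 12 lower and 4 higher with LPS. The median log2 fold change was -0.23 with the sequence and -0.13 without it for IL-1β, and -0.25 and -0.12 for LPS. Of the 7 genes with no promoter entry, 5 were lower and 2 higher with IL-1β (median -0.17), and 5 lower and none higher with LPS (median -0.16). Each of these counts of none higher came from edgeR and was 0 also at an unadjusted p under 0.05, with DESeq2 and with limma-voom. The promoters of Smpd1 and Ctsc, the genes with the highest fold changes, held no copy in this window, and their last 80 bases before the start are shown for comparison, from chr1:169304692-169304771 (plus) and chr1:151440969-151441048 (plus). A match is a description of letters, not a bound site.
Smpd1: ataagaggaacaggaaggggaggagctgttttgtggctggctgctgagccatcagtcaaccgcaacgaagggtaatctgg
Ctsc: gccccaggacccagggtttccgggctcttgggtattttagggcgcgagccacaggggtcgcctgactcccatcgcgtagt

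Among the genes of sphingolipid and lipid breakdown, Smpd1 rose and the other 4, counting progranulin, fell. Smpd1, acid sphingomyelinase, which splits sphingomyelin into ceramide and phosphocholine, was at 138, 143, 149 and 144 CPM in control replicates 1 to 4, 364, 361, 354 and 364 CPM with IL-1β and 394, 372, 390.2 and 403 CPM with LPS. All 8 treated libraries lay above all 4 controls. It was 2.52-fold higher with IL-1β (log2 fold change 1.33, SE 0.029, adjusted p = 1.39e-23) and 2.72-fold higher with LPS (1.44, SE 0.029, adjusted p = 3.61e-24). Asah1, acid ceramidase, which breaks down the ceramide that Smpd1 makes, moved the other way, from 176 ± 8.87 CPM in control to 140.3 ± 1.68 CPM with IL-1β and 144 ± 6.03 CPM with LPS (SD, n = 4). It fell by 20.1% with IL-1β and fell by 18.05% with LPS. Without Smpd1 the other 35 genes took 0.752% ± 0.00544 of counts in control (SD, n = 4), 0.704% ± 0.00436 with IL-1β and 0.709% ± 0.00549 with LPS. In RefSeq's GRCr8 table Apbb1 is the gene next to Smpd1, and its row also rose, from 31.4 ± 0.928 CPM in control (SD, n = 4) to 66.0 ± 1.33 CPM with IL-1β and 75.4 ± 2.77 CPM with LPS (log2 fold changes 1.07 and 1.26). Whether reads of one of these neighbours were counted for the other was not tested.

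Psap, the precursor of the saposins that present sphingolipids to their hydrolases, was lower, at -0.28 (log2, SE 0.027) with IL-1β and -0.21 (SE 0.027) with LPS. Ppt1, which removes palmitate from proteins, was lower, at -0.17 and -0.16. Grn, progranulin, a secreted protein that is cut into granulins in the lysosome, was at 467, 486, 478 and 469 CPM in control, 350.1, 341, 355 and 358 CPM with IL-1β and 399, 376, 403 and 408 CPM with LPS. The 3 groups did not overlap, with control highest and IL-1β lowest. Its log2 fold change was -0.44 (SE 0.028, adjusted p = 2.86e-13) with IL-1β and -0.26 (SE 0.028, adjusted p = 1.24e-08) with LPS.

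**Figure D3:**
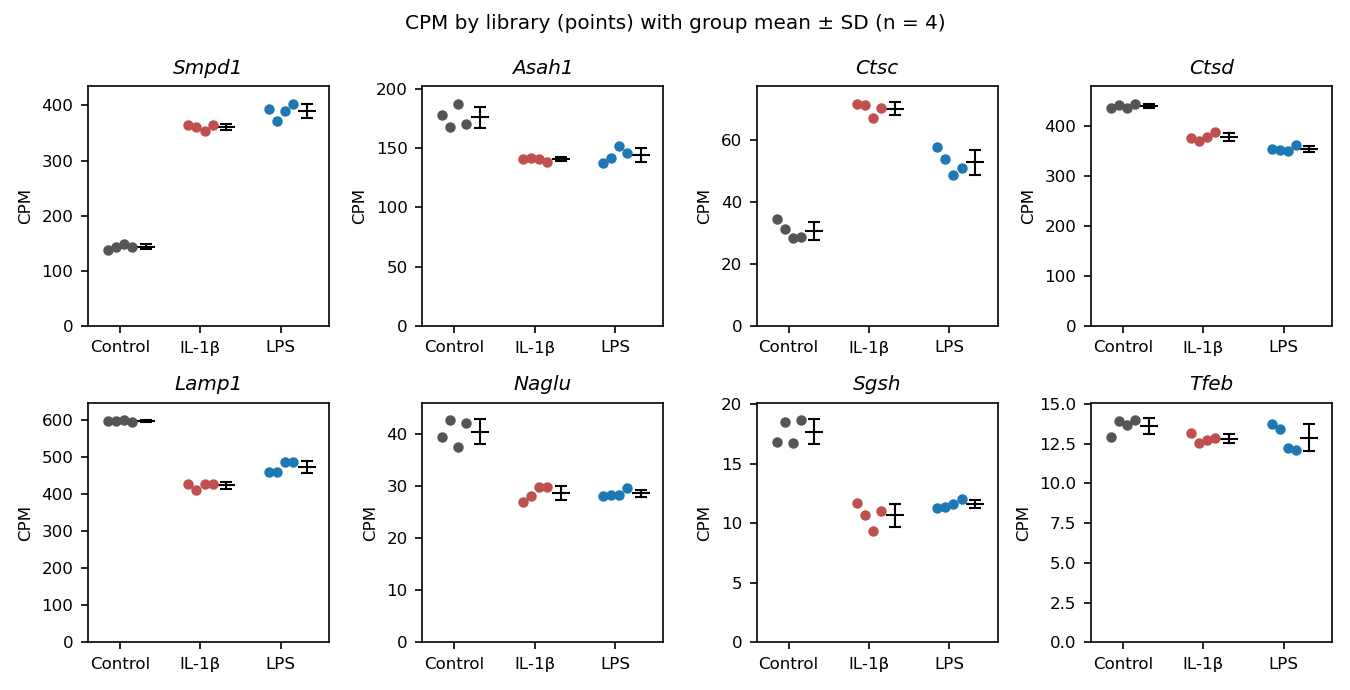
Points are CPM of 8 genes in each of the 4 libraries of a group, on axes that start at 0, and bars give the group mean ± SD. Smpd1 and Ctsc lie above the controls in all treated libraries, Asah1, Ctsd, Lamp1, Naglu and Sgsh lie below them, and the groups of Tfeb overlap.

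Of 10 proteases, 5 were lower and 3 higher with IL-1β, and 6 lower and 2 higher with LPS. The 30% and 20% higher lie near the 24.7% and 22.5% of all genes tested. The 50% and 60% lower stand beside 23.0% and 20.0%. Ctsc, dipeptidyl peptidase 1, which activates granule serine proteases by trimming their ends, was at 34.5, 31.1, 28.4 and 28.5 CPM in control, 71.6, 71.2, 67.1 and 70.2 CPM with IL-1β and 57.6, 53.9, 48.5 and 50.7 CPM with LPS. The 3 groups did not overlap. It was 2.28-fold higher with IL-1β (log2 1.19, SE 0.058, adjusted p = 7.57e-13) and 1.71-fold higher with LPS (log2 0.78, SE 0.059, adjusted p = 1.03e-09). Ctsh, an aminopeptidase of the same family as Ctsb, was at 50.2, 51.8, 49.7 and 50.8 CPM in control, 64.4, 64.3, 60.0 and 63.1 CPM with IL-1β and 64.8, 64.4, 60.1 and 64.9 CPM with LPS. Both treated groups lay above the controls and overlapped each other, at log2 fold changes of 0.31 (SE 0.037) and 0.33 (SE 0.036). Ctsb, a cysteine protease of the papain family, was at 596, 588, 583 and 583 CPM in control, 623, 611, 612 and 629.9 CPM with IL-1β and 595, 593, 601 and 607 CPM with LPS. The IL-1β libraries lay above the controls and the LPS libraries overlapped them. Ctsb rose by 0.076 on the log2 scale with IL-1β (SE 0.025, adjusted p = 0.0125), and with LPS the difference was 0.029 (95% interval -0.027 to 0.084), which did not pass. Scaled by library size alone, Ctsb was at 0.13 with IL-1β and also passed with LPS, at 0.068 (adjusted p = 0.0178).

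Ctsd, the main aspartic protease of the lysosome, whose promoter stretch is printed with its 2 copies of CACGTG, was at 436, 442, 436 and 444 CPM in control, 376, 369, 378 and 387 CPM with IL-1β and 354, 351, 349 and 361 CPM with LPS. The 3 groups did not overlap, with LPS lowest. Its log2 fold change was -0.22 (SE 0.025, adjusted p = 2.77e-08) with IL-1β and -0.31 (SE 0.025, adjusted p = 3.32e-11) with LPS. Tpp1, which removes tripeptides from the ends of proteins, was at 136, 135, 126 and 126 CPM in control, 103, 93.1, 101 and 101 CPM with IL-1β and 101, 112, 113 and 112 CPM with LPS. Every treated library was below every control, at log2 fold changes of -0.39 and -0.26. Ctsa, a carboxypeptidase that also protects neuraminidase and β-galactosidase, fell by 18.8% with IL-1β and fell by 16.02% with LPS. Ctsl, a broad cysteine endopeptidase, fell by 9.95% and fell by 9.03%. Ctsz, a carboxypeptidase, did not pass with either, at 0.053 (95% interval -0.035 to 0.14) and 0.0054 (-0.082 to 0.092), and passed with IL-1β when scaled by library size alone (0.10, adjusted p = 0.0272).

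Ctsk, a collagen-degrading protease known from osteoclasts, was at 28.2, 31.9, 28.1 and 30.0 CPM in control, 25.3, 29.7, 27.2 and 25.6 CPM with IL-1β and 25.8, 25.1, 20.1 and 23.2 CPM with LPS. The LPS libraries were below the controls (log2 -0.33, SE 0.067, adjusted p = 0.000394), while the IL-1β libraries overlapped them (-0.13, adjusted p = 0.106). Without LPS replicates 3 and 4 the LPS difference in Ctsk was -0.22 (adjusted p = 0.0084). The IL-1β difference in Ctsk passed without IL-1β replicate 2 (-0.18, adjusted p = 0.0334), the highest of its group, and without LPS replicate 3 (adjusted p = 0.0418), without LPS replicates 3 and 4 (0.0366), with no filter (0.0329), in the 8 libraries compared (0.0404) and with the replicate block (0.0489).

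Ctss, a cysteine protease that is active at neutral pH and is known for trimming the invariant chain in antigen-presenting cells, fell furthest of the 36 with LPS. It was at 8.15, 8.47, 8.39 and 8.03 CPM in control, 4.84, 4.52, 5.78 and 5.00 CPM with IL-1β and 3.07, 3.01, 3.62 and 3.85 CPM with LPS. The 3 groups did not overlap, with control highest and LPS lowest. The log2 fold change was -0.71 (SE 0.094, adjusted p = 3.58e-07) with IL-1β and -1.28 (SE 0.099, adjusted p = 1.28e-11) with LPS, and -1.44 with LPS when its replicates 3 and 4 were left out. Most macrophage markers were lower too. Of 19 listed, 17 were tested. With IL-1β, 11 were lower and 1 higher, against 23.0% of all genes tested lower and 24.7% higher. With LPS, 13 were lower and 1 higher, against 20.0% and 22.5%. Without LPS replicates 3 and 4, 14 of 18 tested were lower and 1 higher, against 17.6% and 19% of all genes. The marker higher with IL-1β was Cd163 (log2 fold change 3.68), from a mean of 0.0521 CPM in control to 0.761 CPM. The marker higher with LPS was Emr1 (0.31), from 17.6 to 21.9 CPM, and it fell with IL-1β (-1.57). The summed level of the 19 markers was 145 to 154 CPM in control, 82.4 to 89.6 CPM with IL-1β and 70.0 to 77.01 CPM with LPS. Marco was at 0 in all LPS libraries, and the other 18 markers were above 0 in at least 1 library of every group. The part of macrophages in the fall of Ctss was not tested.

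**Figure D4:**
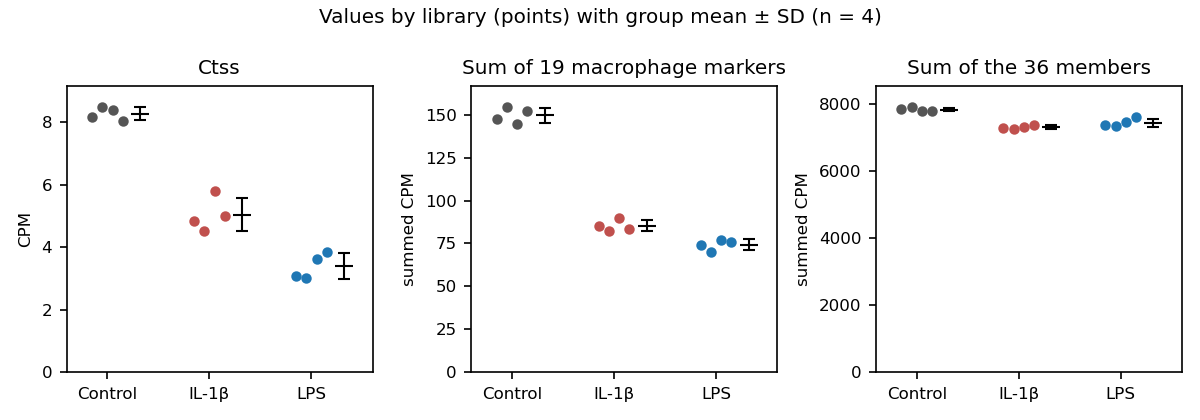
Points are the CPM of Ctss, the summed CPM of 19 macrophage markers and the summed CPM of the 36 genes in each of the 4 libraries per group, on axes that start at 0, with bars for the mean ± SD. Ctss and the macrophage sum step down from control to IL-1β to LPS, and the sum of the 36 genes stays between 7251 and 7897 CPM.

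Of 7 membrane proteins, 5 were lower and 1 higher with IL-1β, and 4 lower (5 without LPS replicates 3 and 4) and 1 higher with LPS. Shares over all genes tested were 23.0% lower and 24.7% higher with IL-1β, and 20.0% and 22.5% with LPS (17.6% and 19% without these replicates). Lamp1, a common marker of the lysosomal membrane and the gene with 5 copies of CACGTG in its promoter, was at 598, 598, 599.7 and 594 CPM in control, 427, 411, 428 and 429 CPM with IL-1β and 459, 460.3, 488 and 488 CPM with LPS. The 3 groups did not overlap, with control highest and IL-1β lowest. It fell by 29.1% with IL-1β (log2 fold change -0.50, SE 0.027, adjusted p = 7.24e-15) and fell by 20.7% with LPS (-0.33, SE 0.027, adjusted p = 3.69e-11). Lamp2, its paralog with a part in chaperone-mediated autophagy, was lower with IL-1β (-0.17, SE 0.026) and narrowly missed the threshold with LPS (-0.064, adjusted p = 0.052). That LPS difference in Lamp2 passed in 11 of the alternative analyses, among them DESeq2 (adjusted p = 0.0162), the replicate block (0.0424) and the fits without control replicate 4 (0.0483), IL-1β replicate 4 (0.0412) or LPS replicate 4 (0.0317). Cd63, a tetraspanin of late endosomes and exosomes, was lower, at -0.29 and -0.20. Mcoln1, the calcium channel of the lysosome, was lower, at -0.17 and -0.22.

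Scarb2, the receptor that brings β-glucocerebrosidase to the lysosome, was lower, at -0.075 with IL-1β (adjusted p = 0.031) and -0.11 with LPS (adjusted p = 0.00322). The IL-1β call on Scarb2 was lost without control replicate 3 (adjusted p = 0.0589) or 4 (0.108), without IL-1β replicate 1 (0.107) or 4 (0.0519), and when scaled by library size alone (0.496), which also ended the LPS call (0.0578). Cln3, a membrane protein whose loss causes juvenile neuronal ceroid lipofuscinosis, did not pass, with 95% intervals of -0.12 to 0.17 for IL-1β and -0.14 to 0.15 for LPS. Laptm4a, a protein with several membrane spans that sits in late endosomes and lysosomes, was the membrane protein that rose. It was at 781, 757, 772 and 775 CPM in control, 965, 932, 938 and 973 CPM with IL-1β and 897, 909, 928 and 963 CPM with LPS. Both treated groups lay above the controls, at log2 fold changes of 0.30 (SE 0.027, adjusted p = 2.27e-10) and 0.26 (SE 0.027, adjusted p = 5.68e-09).

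Of 6 glycosidases, 3 were lower and 1 higher with IL-1β, and 4 lower (3 without LPS replicates 3 and 4) and 0 higher with LPS. Over all genes tested, 23.0% were lower and 24.7% higher with IL-1β, and 20.0% and 22.5% with LPS (17.6% and 19% without these replicates). The count of 0 came from edgeR and was also 0 at an unadjusted p under 0.05, with DESeq2 and with limma-voom. Neu1, the lysosomal sialidase, fell most, from 38.5, 39.3, 38.0 and 39.3 CPM in control to 25.5, 28.0, 29.6 and 28.4 CPM with IL-1β and 31.5, 26.4, 28.8 and 28.3 CPM with LPS. Every treated library was below the controls, and the treated groups overlapped. Its log2 fold change was -0.48 (SE 0.051, adjusted p = 8.82e-09) and -0.43 (SE 0.051, adjusted p = 5.35e-08). Gaa, which breaks down glycogen, was lower, at -0.24 and -0.28. Hexa, a subunit of β-hexosaminidase, was lower, at -0.16 and -0.20. Man2b1, a mannosidase, was higher, at 0.099 with IL-1β (adjusted p = 0.00851; 0.15 and 0.000186 with library size alone), and stood at -0.0011 with LPS (95% interval -0.070 to 0.068). Gusb, β-glucuronidase, was at 0.017 with IL-1β (adjusted p = 0.772) and lower, at -0.12 with LPS (adjusted p = 0.0244), a call that was lost without control replicate 2 (adjusted p = 0.0929) or 4 (0.0978), without LPS replicate 1 (0.0646) or 3 (0.0671), without LPS replicates 3 and 4 together (0.0724) and with library size alone (0.12). Gla, α-galactosidase A, did not pass with either treatment, with 95% intervals of -0.14 to 0.10 and -0.12 to 0.12.

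Among the 4 enzymes that break down glycosaminoglycans, 3 were lower and 1 higher with IL-1β, and 3 lower and 0 higher with LPS. Among all genes tested, 23.0% were lower and 24.7% higher with IL-1β, and 20.0% and 22.5% with LPS. The count of 0 came from edgeR and was also 0 at an unadjusted p under 0.05, with DESeq2 and with limma-voom. Sgsh, heparan N-sulfatase, was at 16.8, 18.5, 16.7 and 18.6 CPM in control, 11.7, 10.7, 9.36 and 11.0 CPM with IL-1β and 11.3, 11.4, 11.7 and 12.04 CPM with LPS. Naglu, which removes N-acetylglucosamine in the same breakdown of heparan sulfate, was at 39.4, 42.6, 37.6 and 42.1 CPM, 27.0, 28.0, 29.7 and 29.8 CPM and 28.1, 28.3, 28.3 and 29.6 CPM in the same order. For both genes the treated libraries lay below all controls and overlapped each other. Sgsh changed by -0.73 (log2, SE 0.068, adjusted p = 5.63e-10) and -0.61 (SE 0.067, adjusted p = 1.41e-08), and Naglu by -0.50 (SE 0.047) and -0.50 (SE 0.047). In RefSeq's GRCr8 table Sgsh overlaps Card14, with log2 fold changes of -0.51 (SE 0.066) with IL-1β and -0.49 (SE 0.065) with LPS, and Slc26a11, with -0.76 (SE 0.075) and -0.55 (SE 0.072). Use of strand in counting is not given in the sources used here, so reads of overlapping genes cannot be told apart.

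Overlaps in that table touched 18 of the 36 genes, and 11 overlapping genes, on 9 of them, had a row of their own. Ctsa, which fell, overlaps Pltp, at 17.99 CPM in control and with log2 fold changes of -1.41 with IL-1β and -1.21 with LPS, and Neurl2 (0.032 and -0.20, neither passing). Psap, which fell, overlaps Cdh23, which rose (0.79 and 0.96) from 0.770 CPM. Atp6v1h, which fell, overlaps Rgs20, which rose with IL-1β (0.50) and did not pass with LPS (0.12). Ctsz, which did not pass, overlaps Nelfcd, which rose (0.25 and 0.14). Apobr at Cln3 (0.25 and -0.046) and Tmem202 at Hexa (0.21 and 0.052) did not pass, and Tnni2 at Ctsd and Rdh5 at Cd63 were too low to test. What these overlaps add to the counts of either gene was not tested.

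Galns, which removes sulfate from keratan and chondroitin sulfate, was lower, at -0.17 with IL-1β (adjusted p = 0.0268) and -0.29 with LPS (adjusted p = 0.000366). The IL-1β call on Galns was lost without control replicate 2 (adjusted p = 0.11) or 4 (0.0581), without IL-1β replicate 2 (0.0869) or 3 (0.0571), with library size alone (0.121) and with no filter (0.0504). Arsb, which removes sulfate from dermatan and chondroitin sulfate, went the other way with IL-1β. It was at 36.8, 39.7, 41.3 and 42.8 CPM in control, 44.2, 43.2, 44.7 and 43.8 CPM with IL-1β and 37.7, 39.3, 37.6 and 37.5 CPM with LPS. The IL-1β libraries lay above the controls (0.13, SE 0.043, adjusted p = 0.0115) and the LPS libraries overlapped them (-0.075, adjusted p = 0.175). Without control replicate 1, the lowest of the controls for Arsb, the IL-1β difference was 0.092 (adjusted p = 0.0819) and the LPS difference was -0.12 (adjusted p = 0.0296).

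All 3 proton pump subunits were lower with both treatments, beside 23.0% of all genes tested with IL-1β and 20.0% with LPS. Atp6v1a, the catalytic subunit, was lower, at -0.38 (SE 0.034) with IL-1β and -0.33 (SE 0.033) with LPS. Atp6v0d1, a subunit that joins the pump's membrane ring to its stalk, was lower, at -0.21 and -0.16. Atp6v1h, a regulatory subunit, was at 72.4, 78.8, 78.8 and 76.7 CPM in control, 63.5, 64.0, 62.8 and 62.1 CPM with IL-1β and 65.4, 64.8, 75.3 and 70.7 CPM with LPS. With IL-1β all libraries were below the controls (-0.28, SE 0.041, adjusted p = 2.15e-06), and with LPS replicate 3 lay among the controls (-0.15, SE 0.041, adjusted p = 0.00376). Without LPS replicates 3 and 4 the LPS difference in Atp6v1h was -0.23 (adjusted p = 2.29e-05).

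Tfeb, the regulator of the set, was at 12.9, 13.9, 13.7 and 13.96 CPM in control, 13.2, 12.6, 12.7 and 12.8 CPM with IL-1β and 13.7, 13.4, 12.2 and 12.1 CPM with LPS. The groups overlapped. Its log2 fold change was -0.086 (95% interval -0.23 to 0.058, adjusted p = 0.282) with IL-1β and -0.080 (-0.22 to 0.061, adjusted p = 0.324) with LPS, so no change in its transcript was detected and a fall of up to -0.23 lies within the interval.

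Set against each other, the treatments differed in fewer of the lysosomal genes. With LPS, 7 of the 36 genes were higher than with IL-1β, 7 were lower and 22 did not pass, against 11.3% of all genes higher and 10.6% lower, and the median difference was 0.0070. Without LPS replicates 3 and 4 the counts were 2 higher and 4 lower, both glycosidase calls among those lost. In that fit the shares of all genes fell too, to 5.4% higher and 5.74% lower. Without LPS replicate 3 the counts were 4 and 4, and without LPS replicate 4 they were 4 and 6. Higher with LPS were Grn (0.18, adjusted p = 4.27e-05), Lamp1 (0.16, adjusted p = 7.84e-05), Tpp1 (0.13), Atp6v1h (0.13), Smpd1 (0.11), Lamp2 (0.11) and Cd63 (0.092). Of these, Grn and Lamp1 passed also without LPS replicates 3 and 4, at 0.14 (adjusted p = 0.00221) and 0.12 (adjusted p = 0.00668). Lower with LPS were Ctss (-0.58, SE 0.11, adjusted p = 0.000246), Ctsc (-0.41, SE 0.054, adjusted p = 1.79e-05), Arsb (-0.21, adjusted p = 0.00079), Ctsk (-0.19), Gusb (-0.14), Man2b1 (-0.10) and Ctsd (-0.093).

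Several of these calls lay near the threshold and were lost when any of several libraries was left out, while the differences kept their direction in every alternative. Over the alternatives the difference in Tpp1 ran from 0.096 to 0.17, in Cd63 from 0.062 to 0.10, in Atp6v1h from 0.046 to 0.16, in Gusb from -0.17 to -0.11 and in Man2b1 from -0.13 to -0.075. The call on Tpp1 was lost without IL-1β replicate 2 (adjusted p = 0.0804) or LPS replicate 2 (0.0515), 3 (0.0561) or 4 (0.0541), and that on Cd63 without IL-1β replicate 1 (0.0672) or 2 (0.0593) or LPS replicate 3 (0.0529) or 4 (0.0554). That on Atp6v1h was lost without IL-1β replicate 3 (0.0558) or 4 (0.0645) or LPS replicate 3 (0.129) or 4 (0.0725). That on Gusb was lost without IL-1β replicate 2 (0.0863) or 4 (0.0838) or LPS replicate 1 (0.0523) or 3 (0.0665), and that on Man2b1 without LPS replicate 2 (0.0521) or 3 (0.0609). Ctsk, at an adjusted p of 0.0484, was lost in 13 alternatives, among them the fits without control replicates 1, 3 or 4, IL-1β replicates 2, 3 or 4, or LPS replicates 3 or 4, with adjusted p-values up to 0.168 when 1 library was left out and a difference of -0.13 without LPS replicate 3. Without LPS replicates 3 and 4 together, calls were also lost for Smpd1 (0.086, adjusted p = 0.0838), Lamp2 (0.088, 0.0633) and Atp6v1h (0.046, 0.556), and Ctsk stood at -0.082 (0.495). Psap did not pass (adjusted p = 0.0747), and passed without IL-1β replicate 4 (0.0441), with no filter (0.0473) and with the replicate block (0.0395).

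Lists of other lysosomal, cathepsin inhibitor and autophagy genes held 117 symbols, of which 115 matched a row and 111 were tested. With IL-1β 60 were lower and 14 higher, with LPS 61 lower and 12 higher, and between the treatments 29 were higher and 7 lower with LPS than with IL-1β. Of the 111, 54.1% were lower and 12.6% higher with IL-1β, against 23.0% and 24.7% of all genes tested. With LPS 55% were lower and 10.8% higher, against 20.0% and 22.5%. Without LPS replicates 3 and 4, 56 were lower and 11 higher with LPS, and between the treatments 15 were higher and 7 lower. Those 56 and 11 are 50.5% and 9.91%, against 17.6% and 19% of all genes. The median log2 fold change of the 111 genes was -0.17 with IL-1β and -0.14 with LPS. The other proton pump subunits ran lower, with 11 of 16 lower and 0 higher with IL-1β (0 also at an unadjusted p under 0.05, with DESeq2 and with limma-voom) and 12 lower and 1 higher with LPS, the higher call being lost when LPS replicates 3 and 4 were left out. Log2 fold changes of the genes with the smallest p, in parentheses here and for the other lists, were Atp6v1c1 (-0.48), Atp6ap2 (-0.51) and Atp6v1b2 (-0.35) with IL-1β, and Atp6v0a1 (-0.26), Atp6ap2 (-0.37) and Atp6v0b (-0.28) with LPS. Of 7 other lysosomal proteases tested, 5 were lower with IL-1β and 6 with LPS (5 without LPS replicates 3 and 4), and none was higher in the edgeR test, at an unadjusted p under 0.05, with DESeq2 or with limma-voom, among them Dpp7 (-0.65 and -0.49), Scpep1 (-0.39 and -0.34), Prcp (-0.39 with IL-1β) and Lgmn, legumain (-0.48 with LPS). Both tested cathepsin inhibitors that passed were lower: Cst3, cystatin C, at -0.66 and -0.46, and Cstb, cystatin B, at -0.50 and -0.25, while Cst7 did not pass (0.23 and 0.33).

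Other hydrolases and cofactors were divided, with 12 of 24 lower and 6 higher with IL-1β and 12 lower (10 without LPS replicates 3 and 4) and 4 higher with LPS. With IL-1β 50% were lower, beside 23.0% of all genes tested, and 25% higher, near the 24.7% of all genes. With LPS 50% were lower and 16.7% higher, beside 20.0% and 22.5%. Fuca1, α-fucosidase, rose by 0.73 with IL-1β and 0.37 with LPS, and Gm2a, which lifts ganglioside GM2 for its hydrolase, rose by 0.53 with IL-1β. Aga, which cuts the sugar link of glycoproteins, was lower, at -0.37 and -0.30, and Hgsnat, a heparan sulfate enzyme that follows Sgsh in the same pathway, was lower, at -0.25 with LPS. Of 21 other membrane proteins and transporters tested, 14 were lower and 2 higher with IL-1β and 13 lower and 1 higher with LPS. That is 66.7% and 9.52% with IL-1β, beside 23.0% and 24.7% of all genes. With LPS it is 61.9% and 4.76%, beside 20.0% and 22.5%. Slc11a1, a metal transporter of phagocyte lysosomes, changed by -1.31 with IL-1β, Tpcn1, an endolysosomal cation channel, by -0.49 and -0.50, and Cd164, a sialomucin, by -0.34 with IL-1β. With LPS, Laptm4b, the close relative of Laptm4a, was lower, at -0.24, and Slc11a2, an iron transporter, rose by 0.70. The 6 genes of mannose 6-phosphate tagging and sorting, which carry enzymes to the lysosome, were mostly not called: none passed with IL-1β by edgeR, DESeq2 or limma-voom, and 1 was lower at an unadjusted p under 0.05. Gnptab and Nagpa (-0.082 and -0.17) and Igf2r (0.11) had the smallest p with IL-1β, and with LPS Igf2r, the receptor for mannose 6-phosphate, was lower, at -0.26, while Nagpa (-0.20) and Sort1 (-0.069) did not pass. With LPS replicates 3 and 4 left out, 2 of the 6 were lower with LPS.

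Among 16 tested genes of the MiT/TFE family and of mTORC1 docking at the lysosome, 9 were lower and 3 higher with each treatment, and 7 were lower and 3 higher with LPS without its replicates 3 and 4. With each treatment 56.2% were lower and 18.8% higher. Shares of all genes tested were 23.0% and 24.7% with IL-1β, and 20.0% and 22.5% with LPS. Without LPS replicates 3 and 4 the shares were 43.8% and 18.8% with LPS, beside 17.6% and 19% of all genes. Flcn, folliculin, and its partners Fnip1 and Fnip2, which act on the Rag GTPases that hold mTORC1 and TFEB at the lysosome, were lower, at -0.55, -0.59 and -0.74 with IL-1β, and Flcn and Fnip2 by -0.32 and -0.46 with LPS. Tfe3, a relative of Tfeb, was higher by 0.29 with LPS. Of 18 autophagy genes, 7 were lower and 3 higher with IL-1β and 6 lower (5 without LPS replicates 3 and 4) and 3 higher with LPS. With IL-1β 38.9% of them were lower and 16.7% higher, beside 23.0% and 24.7% of all genes tested. With LPS 33.3% were lower and 16.7% higher, beside 20.0% and 22.5%. Without LPS replicates 3 and 4, 27.8% were lower with LPS, beside 17.6% of all genes. Optn, an autophagy receptor, rose by 0.42 and 0.62, Uvrag, which helps autophagosomes mature, was lower, at -0.57 and -0.48, Sqstm1, the receptor p62, was lower, at -0.38 with IL-1β, and Atg12 rose by 0.30 with LPS.

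Between the treatments more of the other genes were higher than lower with LPS, 29 against 7, or 15 against 7 without LPS replicates 3 and 4. Over all genes tested, 11.3% were higher and 10.6% lower, and without these libraries 5.4% and 5.74%. Of the other proton pump subunits 7 were higher with LPS and 1 without these libraries, of other membrane proteins and transporters 6 and 3, and of the MiT/TFE and docking genes 7 and 4. Flcn (0.23), Fnip1 (0.32) and Fnip2 (0.29), Cst3 (0.20) and Cstb (0.25), and Optn, Sqstm1 and Gabarapl1 (0.20, 0.20 and 0.11) were higher with LPS. Dpp7 (0.16), Ids (0.24), Slc11a1 (0.68), Slc11a2 (0.39), Cd164 (0.15) and Atp6v1c1 (0.30) were also higher. Lgmn (-0.15), Gm2a (-0.32), Fuca1 (-0.36), Igf2r (-0.37), Atp6v0a1 (-0.17, SE 0.030) and Atp6v0d2 (-1.19, with a wider SE of 0.25) were lower with LPS than with IL-1β. Prcp (0.100), Cst7 (0.099), M6pr (0.040) and Gnptab (0.034) did not pass.

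**Figure D5:**
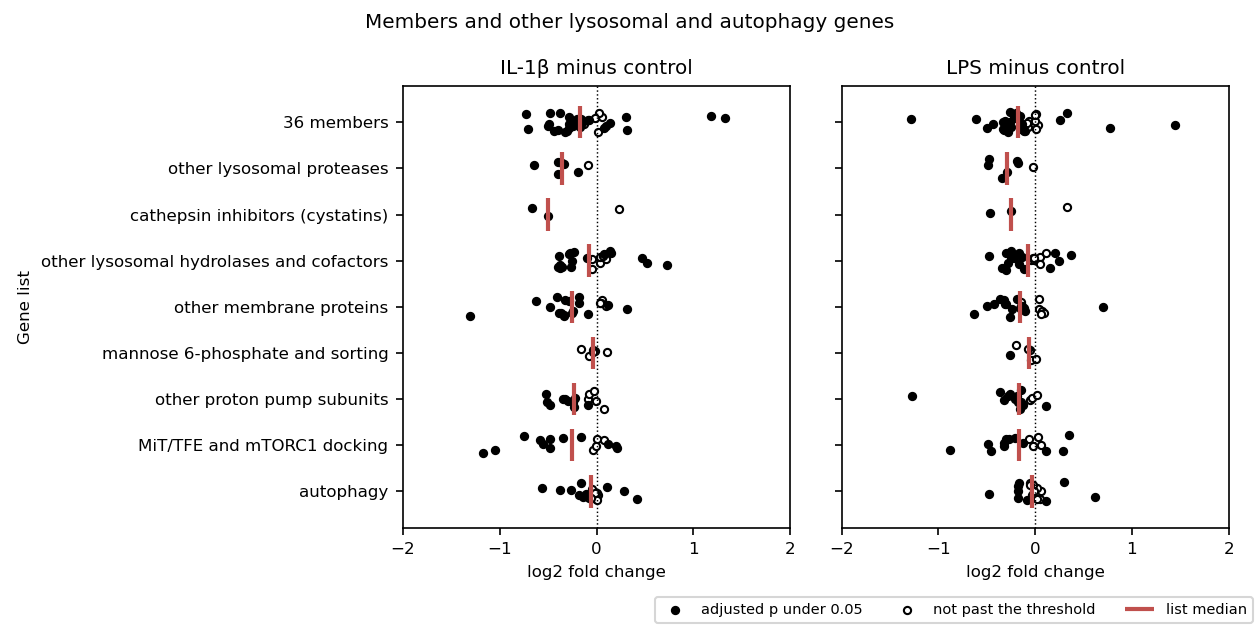
Points are log2 fold changes of single genes for IL-1β minus control and LPS minus control, in the 36 genes and in 8 lists of other genes, with filled points past an adjusted p of 0.05 and a red bar at each list's median. All 9 medians lie below 0 in both panels, and single genes reach from -1.31 to 1.33 in the IL-1β panel, and in the LPS panel from -1.28 to 1.44.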

How the data were processed

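Raw counts, 1 column for each of 12 libraries and 1 row for each gene symbol, were deposited by the authors; the values are whole numbers with unequal totals. Per the labels' protocols, libraries were made with a stranded mRNA kit and sequenced on an Illumina HiSeq4000. The build Rnor_6.0 and the tools TopHat2 2.1.1, DESeq2 and SAMtools are named, with no role or order, per the submitters' processing notes. The counting program, its annotation, its use of strand and its handling of shared reads are not given in the sources used here, so the split of reads between overlapping genes is unknown.

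Of 30045 rows, 1425 had no count, and filterByExpr by group kept 17330 genes. edgeR 4.0.16 in R 4.3.3 scaled libraries by TMM, fitted the 3 groups to all 12 libraries (glmQLFit, robust) and tested contrasts by two-sided quasi-likelihood F-tests with Benjamini-Hochberg adjustment over all genes tested, at 0.05 with no fold minimum. The SE of a log2 fold change is its size divided by the square root of F, and 95% intervals use the t distribution with 9 residual degrees of freedom. The F-tests used more degrees of freedom, so the intervals are wider than the p-values imply. The procedure was tested on simulated data. Total counts of 20873934 to 32090924 per library set the precision. Whether replicates are separate isolations, animals or wells is not given, and p-values then reflect spread among these samples alone, which may be technical. No other row ran within 2% of a lysosomal gene's counts in every library.

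The genes and lists, among them the lists of cell type markers, were chosen with earlier results of these data known. Values in every library are given for Lamp1, Ctsd, Ctsb, Ctss and Tfeb, and for the 4 highest and 4 lowest log2 fold changes past the threshold in each comparison. From each list of other genes the 3 with the smallest p in each comparison are named. Apbb1 and the genes that overlap a lysosomal gene were named after their values were seen. Ctso and Rragb had no row. Alternatives were RLE and upper-quartile factors, library size alone, no filter, a filter of 1 CPM in 4 libraries, DESeq2 1.42.0, limma-voom (limma 3.58.1), fits on 8 libraries, a replicate block, a threshold of 0.01, the 100 most abundant genes left out, and each library left out. Leaving out LPS replicates 3 and 4 together, for the lysosomal genes and for every list, was added after seeing the data. Promoters and neighbouring genes come from RefSeq tables of GRCr8, a newer build than that of the counts, so they were matched by symbol.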

Additional observations from a re-analysis of the deposited data

Results flagged for a closer look

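In 7 of the 108 groups of 4 libraries (36 genes in 3 groups), 1 library stood far from the other 3, and chance sets apart about 1 group in 20. In LPS replicate 1, Ctsa was at 267 CPM, below the 278 to 279.7 CPM of the other LPS libraries, and Tpp1 was at 101 CPM, below 112 to 113 CPM. In LPS replicate 3, Ctsh was at 60.1 CPM, below 64.4 to 64.9 CPM, and Ctsl was at 846 CPM, below 895 to 899.6 CPM. In LPS replicate 4, Naglu was at 29.6 CPM, above 28.1 to 28.3 CPM, and in LPS replicate 2, Arsb was at 39.3 CPM, above 37.5 to 37.7 CPM. In IL-1β replicate 2, Lamp1 was at 411 CPM, below 427 to 429 CPM.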

How the results depend on the processing

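Of 108 differences (36 genes in 3 comparisons), 72 passed the threshold, and 58 of these kept direction and call in every alternative run. A threshold of 0.01 ended 11 calls, and leaving that alternative aside 59 kept theirs. Of those that did not pass, 15 changed sign in at least 1 alternative, and none that passed did. Counts against control stayed within 1.5 times in every alternative. Between the treatments, the 7 higher and 7 lower genes became 4 and 4 at an adjusted p under 0.01, and 2 and 4 without LPS replicates 3 and 4, where fewer libraries were fitted. In that last fit the shares of all genes tested fell from 11.3% to 5.4% higher and from 10.6% to 5.74% lower. Leaving out 1 library gave 4 to 7 higher and 4 to 7 lower. With 1 library out, counts with IL-1β ran from 6 to 7 higher and from 21 to 24 lower, and with LPS stayed at 4 higher and ran from 23 to 25 lower. The labels do not say whether replicate numbers pair the libraries. Deviations from the group means correlated between -0.033 and 0.117 for libraries of the same number, and between -0.0749 and 0.0557 for different numbers. The highest were 0.117 for replicate 4 and 0.0945 for replicate 2 of IL-1β and LPS. Not every library correlated best with its own number, so whether the numbers pair samples was not settled. With a replicate block the counts were 7 higher and 24 lower with IL-1β, 4 and 25 with LPS, and 8 and 7 between the treatments. Without the 100 most abundant genes, 2 of which were lysosomal genes described here, they were 6 and 22, 3 and 24, and 7 and 6. Only fold changes within a gene are compared, since transcript lengths were not used here.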
